A study of Mus musculus with 18 samples.

Results

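The genes described here are 38 transcripts that macrophages and monocytes are known for, measured in T cells sorted from melanomas. They were taken by symbol from a list drawn up with earlier results of these data known, all 38 were found among the 37236 genes of the series, and 37 of them reached the mean of 10 normalized counts that a gene needed to be tested. Only Cd163 did not. A normalized count is the number of reads of a gene in a sample divided by the size factor of that sample. With the checkpoint antibody anti-PD-L1, 18 of the 37 tested genes were lower than with the control antibody, against 0.934% of all genes tested. Of these 18 calls, 7 were kept under every alternative that was run. 1 gene, Ctsd, was higher, against 0.2% of all genes. The share left, meaning the mean with anti-PD-L1 as a percent of the mean with IgG2b, ranged widely: the mean with anti-PD-L1 was 6.12% of the control mean for C3ar1 (2.46% without wild-type replicate 5), 15.4% for Lyz2, 35.9% for Fcer1g, 62.0% for Ctss and 137% for Ctsd.

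Macrophages and monocytes are phagocytes of the myeloid lineage. They take up particles through scavenger receptors and Fc receptors, digest them in lysosomes with cathepsins and lysozyme, secrete the complement component C1q, and depend on the growth factor receptor CSF1R and the transcription factor PU.1, which Spi1 encodes. In tumors they can form a large share of the immune infiltrate, and arginase 1, encoded by Arg1, is a known product of macrophages that restrain T cells. Several of the lysosomal genes, Ctsb and Ctsd among them, are also made by most other cell types, T cells included. Fc receptor gamma chain (Fcer1g) and the adaptor DAP12 (Tyrobp) pass on signals through a short sequence motif called ITAM, and both are also found in NK cells and in some T cells.

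The tumors were grown from B16-OVA, a mouse melanoma line that carries ovalbumin, in C57BL/6 mice that were either wild-type or Nr2f6-/-. Mice received 0.5 mg of anti-PD-L1 or of IgG2b per injection from d3 on, and harvest was on d14. Mice were 8 to 12 weeks old. The groups were wild-type with IgG2b (n = 3), wild-type with anti-PD-L1 (n = 6), Nr2f6-/- with IgG2b (n = 3) and Nr2f6-/- with anti-PD-L1 (n = 6). Nr2f6-/- mice lack the nuclear receptor NR2F6, and the loss is not limited to T cells. Cells were enriched with CD4 and CD8 beads, pooled, and sorted for CD3, a gate that a macrophage does not pass by its own markers. The published figure legend for these data counts tumor-bearing mice, and lists fewer per anti-PD-L1 group than the n = 6 samples used here. Nothing in the sources states that each sample came from 1 mouse, so p-values measure the spread between these samples.

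Reads counted on genes ranged from 12473391 to 18609482 per sample. Nr2f6 was at 0 in all 9 Nr2f6-/- samples and between 20.2 and 201 normalized counts in the 9 wild-type samples. Of the markers that define the sorted T cells, Cd3e lay between 7381 and 15541 normalized counts in the 18 samples. The library numbers in the sample titles form 2 runs with a gap between them, and these runs are called library sets here. The titles name no batch, so the sets are read from the numbering alone. The second set holds only replicates 4 to 6 of both anti-PD-L1 groups, so treatment counts are also given for the first set alone. Which cells made the RNA of these genes was not measured. Since these are bulk samples, several changes cannot be told apart. They are fewer macrophages in the sorted cells, less RNA of these genes per macrophage, and a change in other cells that make these RNAs.

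Of the 38 genes, 27 had a promoter sequence in RefSeq (assembly GRCm38.p6, the build mm10 of the files), taken as 250 bases before to 50 bases after the first transcript start that RefSeq lists for the gene. The letters GAGGAA, the core bound by PU.1 and other ETS factors, read on either strand, were in 17 of the 27 promoters (63.0%) and in 28.3% of all 27025 promoters of that length. They were in 6 of the 12 promoters of genes that fell. The letters TCACGTG, the E-box through which MiT/TFE factors bind many lysosomal genes, were in 1 of the 27, that of Ctsd, and in 3.84% of all promoters. A match is a description of the letters and not a site in use. The promoters of C1qb and C1qc are shown because these genes are neighbours on chromosome 4 and fell together, that of Apoe as a further gene whose call was kept under every alternative, and that of Ctsd because its gene moved the other way, and these 4 were picked after their values were seen. More matches do not go with this choice, since the Mrc1 window holds 3 and that of Ctss 2, as many as that of Apoe. The windows are chr4:136886151-136886450, chr4:136892865-136893164, chr7:19699139-19699438 and chr7:142387778-142388077, all on the minus strand and written 5′ to 3′. The start used for Apoe, the first of 3 listed, lies 2122 bases inside the outermost end of its gene model, that of C1qc lies 22 bases inside, and the other starts are those of the gene models. Capitals mark GAGGAA or its reverse complement in the first 3 and TCACGTG or its reverse complement in Ctsd, where 2 of the 3 matches overlap.
C1qb: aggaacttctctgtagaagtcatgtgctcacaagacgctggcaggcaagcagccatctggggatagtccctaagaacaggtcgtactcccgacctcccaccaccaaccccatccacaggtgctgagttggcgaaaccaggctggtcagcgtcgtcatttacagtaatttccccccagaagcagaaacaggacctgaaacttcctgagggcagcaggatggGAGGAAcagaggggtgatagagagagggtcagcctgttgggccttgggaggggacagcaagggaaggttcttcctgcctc
C1qc: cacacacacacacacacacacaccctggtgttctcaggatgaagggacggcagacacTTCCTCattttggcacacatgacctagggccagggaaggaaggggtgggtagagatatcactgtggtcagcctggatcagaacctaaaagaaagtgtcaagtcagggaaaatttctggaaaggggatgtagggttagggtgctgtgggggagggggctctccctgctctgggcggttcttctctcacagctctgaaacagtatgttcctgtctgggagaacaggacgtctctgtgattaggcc
Apoe: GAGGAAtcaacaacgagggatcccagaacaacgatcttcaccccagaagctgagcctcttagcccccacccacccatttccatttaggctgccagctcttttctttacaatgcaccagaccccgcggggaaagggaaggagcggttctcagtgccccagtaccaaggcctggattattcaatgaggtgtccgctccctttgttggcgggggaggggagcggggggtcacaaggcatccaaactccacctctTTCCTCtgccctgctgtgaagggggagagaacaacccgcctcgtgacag
Ctsd: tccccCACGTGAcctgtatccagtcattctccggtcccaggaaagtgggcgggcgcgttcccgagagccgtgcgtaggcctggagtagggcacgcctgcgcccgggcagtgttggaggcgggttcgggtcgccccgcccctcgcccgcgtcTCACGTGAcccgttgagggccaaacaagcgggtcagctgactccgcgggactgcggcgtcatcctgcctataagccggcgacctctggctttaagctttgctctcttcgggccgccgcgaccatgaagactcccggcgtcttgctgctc

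The first question was which of these genes are lower with anti-PD-L1. With both genotypes averaged, 18 of 37 genes were called lower by limma (Benjamini-Hochberg adjusted p under 0.05 over 11992 genes), against 0.934% of all genes tested. Only Ctsd was called higher, against 0.2% of all genes. Counts of genes that fell or rose in the paragraphs on single roles and lists below stand against these 2 shares. A log2 fold change below 0 was found for 36 of the 37, against 6758 of all 11992, and the median log2 fold change was -3.00 for the 37 genes and -0.07 for all genes. With edgeR the medians were -2.21 and 0.04, and with DESeq2 -2.22 and 0.03. With edgeR on the recovered reads 13 genes were called lower (background 0.659%), with DESeq2 19 (background 1.46%), and in the first library set alone 17 (background 0.876%). For 7 of the 37 every anti-PD-L1 sample lay below every IgG2b sample in both genotypes together, against 0.309% of all genes. These were Lyz2, Fcer1g, Apoe, Lgmn, Mpeg1, Ctsl and Fcgr2b. The calls of 7 of the 18, namely Lyz2, Sepp1, Fcer1g, Apoe, C1qb, C3ar1 and Lgmn, were kept under every alternative that was run, each sample left out included. The other calls were lost under at least 1 alternative, and where a call was lost by leaving out IgG2b samples this is stated beside the gene. The calls of Cd14, Adgre1, Arg1, Ctss and Ctsd were lost in the first library set alone and with library set as a covariate. Those of Fcgr2b, Tyrobp and C1qc were lost with the covariate.

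**Figure D1:**
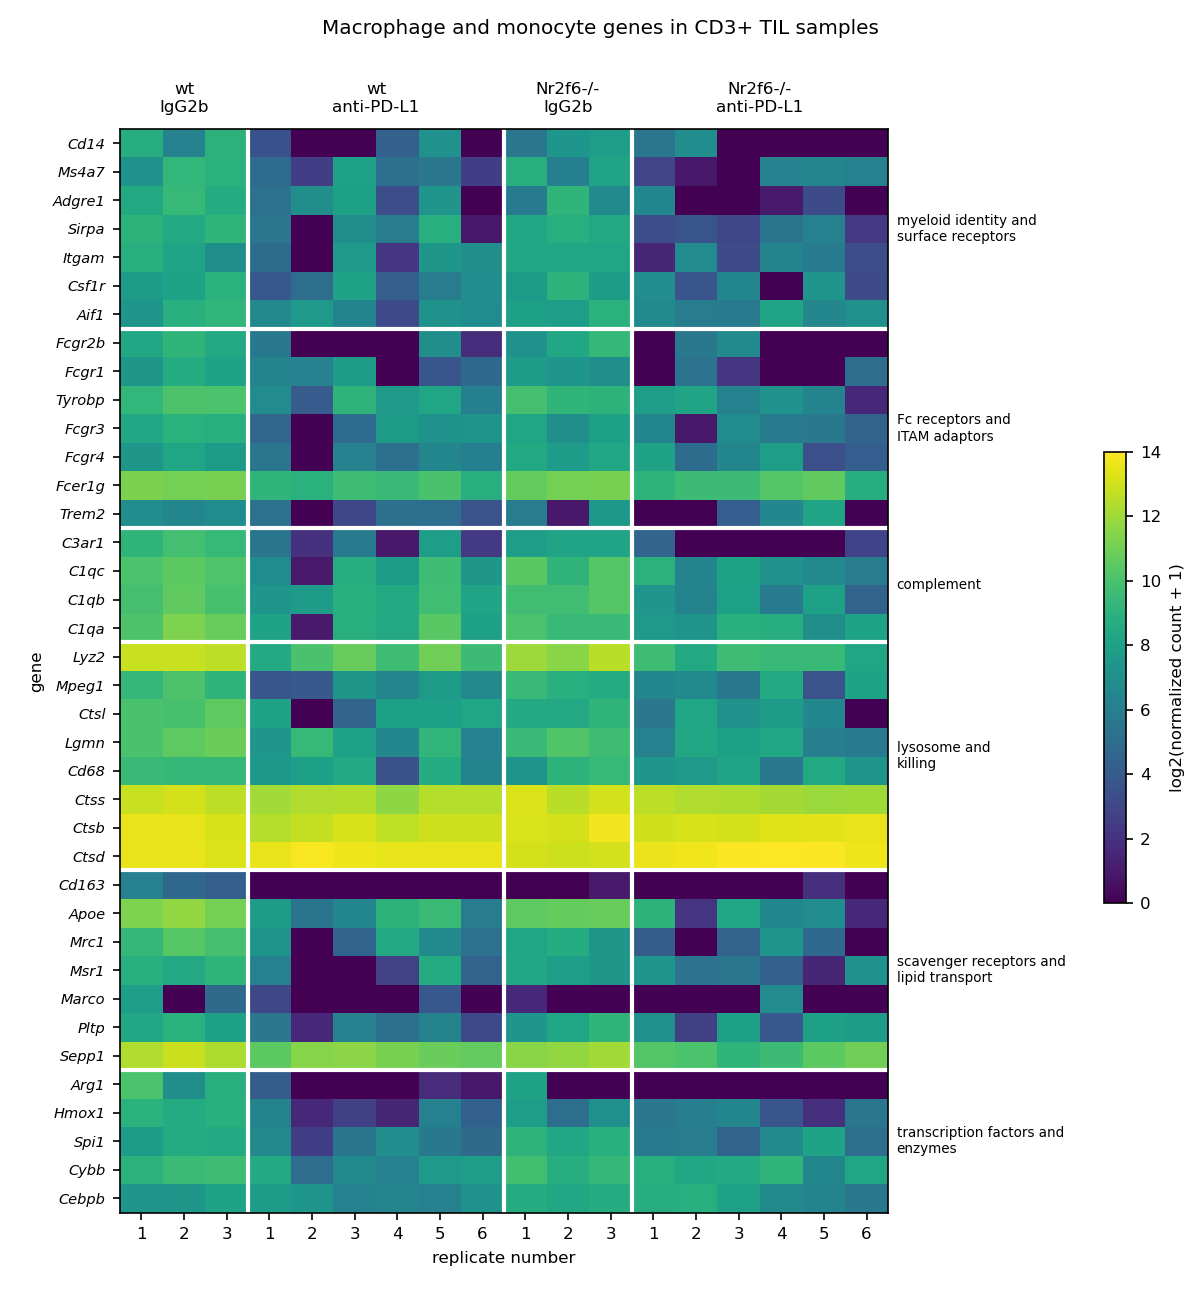
Each row is 1 of the 38 genes, grouped by role and ordered within a role by the share of the IgG2b mean left with anti-PD-L1, and each column is 1 of the 18 samples, with color for log2(normalized count + 1). Most rows are darker in the anti-PD-L1 columns of both genotypes, while Ctss, Ctsb and Ctsd stay bright in all 18 samples.

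The spread among the anti-PD-L1 samples was wide. The number of genes with no read was 0 to 3 of 38 in the IgG2b samples and 1 to 13 in the anti-PD-L1 samples, with 13 in wild-type replicate 2. Wild-type replicate 5 held the highest anti-PD-L1 value for 11 of the 38 genes. Summed, all 38 genes held 43403 to 73071 normalized counts per IgG2b sample and 27467 to 38192 per anti-PD-L1 sample, with 58.0% left. Much of this sum came from Ctsb, Ctsd and Ctss, which kept 79.5%, 137% and 62.0%. Without these 3 genes the sum was 20784 to 40601 normalized counts per IgG2b sample and 4658 to 12969 per anti-PD-L1 sample. The samples with the 2 treatments did not overlap in either sum.

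Genes of lysosomes and of killing moved in both directions. Of 8 genes, 4 fell (Lyz2, Lgmn, Mpeg1, Ctss) and 1 rose (Ctsd). Lyz2, which encodes the lysozyme of macrophages and neutrophils, had 7325, 7220.0 and 6244 normalized counts in wild-type and 4008, 2925 and 6005 in Nr2f6-/- mice with IgG2b, against 383 to 1979 (median 920.0) in wild-type and 296 to 807 (median 686) in Nr2f6-/- mice with anti-PD-L1. Every anti-PD-L1 sample was below every IgG2b sample, and the lowest sample of all was from an Nr2f6-/- mouse with anti-PD-L1. The gene fell to 15.4% of its IgG2b mean (log2 fold change -2.85 ± 0.27 (SE), adjusted p = 3.2e-07), and to 15.2% in the first library set. Its near-identical copy Lyz1 was between 31.5 and 393 normalized counts with IgG2b and between 0 and 40.8 with anti-PD-L1, and for a read that fits both copies the authors kept its primary alignment alone.

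Lgmn, the lysosomal protease legumain, had 1016, 1480.1 and 1864 normalized counts in wild-type and 696, 1157 and 809 in Nr2f6-/- mice with IgG2b, against 72.9 to 673 (median 212) in wild-type and 56.1 to 338 (median 157) in Nr2f6-/- mice with anti-PD-L1. The treatments did not overlap, and the share left was 21.1% (log2 fold change -2.66 ± 0.48 (SE), adjusted p = 0.003). Mpeg1, which encodes the pore-forming perforin-2 of macrophages, had 650.1, 1111 and 547 normalized counts in wild-type and 732, 451 and 405 in Nr2f6-/- mice with IgG2b, against 12.5 to 196 (median 88.8) in wild-type and 10.8 to 378 (median 93.6) in Nr2f6-/- mice with anti-PD-L1. Again the treatments did not overlap. It fell to 18.9% (log2 fold change -3.04 ± 0.68 (SE), adjusted p = 0.019), a call lost without any one of the 3 wild-type or of Nr2f6-/- replicates 1 and 2 with IgG2b, where the adjusted p was up to 0.087. Cathepsin S, trims the invariant chain of MHC class II. Its gene Ctss had 7356, 8902 and 6258 normalized counts in wild-type and 9891, 6022 and 8431 in Nr2f6-/- mice with IgG2b, against 3118 to 5667 (median 5303) in wild-type and 3889 to 6139 (median 4722) in Nr2f6-/- mice with anti-PD-L1, and 11 of the 12 anti-PD-L1 samples were below the lowest IgG2b sample. Its share left was 62.0% (log2 fold change -0.69 ± 0.15 (SE), adjusted p = 0.015). This call was lost in the first library set alone, where the share left was 66.7%, and without wild-type replicate 2 or Nr2f6-/- replicate 1 with IgG2b, where the adjusted p was up to 0.078.

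Cathepsin D moved the other way. Ctsd had 11744, 11969 and 9903 normalized counts in wild-type and 8864, 7871 and 8344 in Nr2f6-/- mice with IgG2b, against 11407 to 14794 (median 11855) in wild-type and 12498 to 16435 (median 14532) in Nr2f6-/- mice with anti-PD-L1. In Nr2f6-/- mice the 6 anti-PD-L1 samples were all above the 3 IgG2b samples, and in wild-type mice the treatments overlapped. It rose to 137% of the IgG2b mean (log2 fold change 0.46 ± 0.11 (SE), adjusted p = 0.03), and to 138% in the first library set, where it was not called. The call was also lost without any one of the 6 IgG2b samples, with adjusted p up to 0.12, with quantile normalization and with library set as a covariate. Ctsb, encoding cathepsin B, did not pass the test (log2 fold change -0.34 ± 0.13 (SE), adjusted p = 0.26). Its mean was 10791 ± 1978 normalized counts with IgG2b (SD, n = 6) and 8578 ± 1841 with anti-PD-L1 (SD, n = 12), 79.5% of the former. Ctsl, encoding cathepsin L, was at 343 to 1482 normalized counts with IgG2b and at 0 to 306 with anti-PD-L1, without overlap and with 2 samples at 0, and did not pass (log2 fold change -3.43 ± 1.03 (SE), adjusted p = 0.10). Cd68, a lysosomal glycoprotein used to mark macrophages, was not called either (log2 fold change -1.72 ± 0.59 (SE), adjusted p = 0.18), and its share left was 37.2%. Exons of Ctsb overlap those of Fdft1 on the opposite strand by 774 bases, and since the strand setting of the counting was not given in the sources used here, reads there could belong to either gene.

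**Figure D2:**
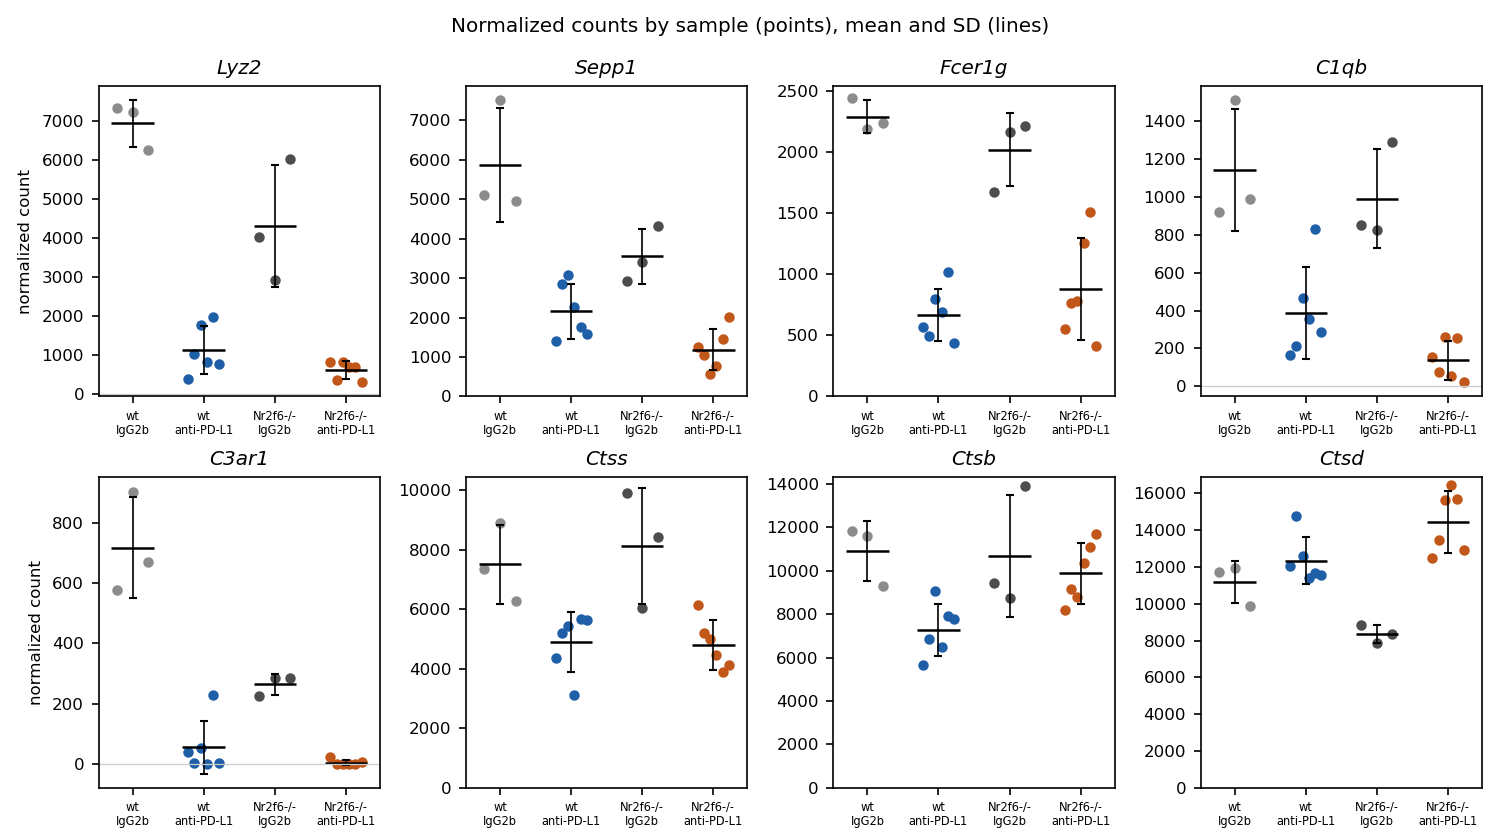
Each panel shows the normalized counts of 1 gene, with a point per sample, a horizontal line for the group mean and a vertical line for the SD (n = 3 with IgG2b, n = 6 with anti-PD-L1). Lyz2, Sepp1, Fcer1g, C1qb and C3ar1 are far lower with anti-PD-L1 in both genotypes, Ctss and Ctsb differ by less, and the Nr2f6-/- anti-PD-L1 samples of Ctsd lie at 12498 to 16435, above the Nr2f6-/- IgG2b samples.

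All 4 complement genes had lower means with anti-PD-L1, and 3 of them fell. C1qb, C1qc and C1qa encode the 3 chains of C1q, which starts the classical complement pathway, and lie at chr4:136880126-136886200, chr4:136889801-136892936 and chr4:136895916-136898844 (GRCm38) with gaps of 3.60 and 2.98 kb between them. C1qb had 921, 1511 and 992 normalized counts in wild-type and 852, 825 and 1293 in Nr2f6-/- mice with IgG2b, against 166 to 828 (median 321) in wild-type and 21.1 to 260.0 (median 117) in Nr2f6-/- mice with anti-PD-L1. Only wild-type replicate 5, at 828, overlapped the IgG2b samples. The share left was 24.6% (log2 fold change -2.50 ± 0.44 (SE), adjusted p = 0.0025). C1qc had 1063, 1448 and 1129 normalized counts in wild-type and 1391, 549 and 1268 in Nr2f6-/- mice with IgG2b, against 1.02 to 794 (median 187) in wild-type and 60.1 to 501 (median 121) in Nr2f6-/- mice with anti-PD-L1, with 20.9% left (log2 fold change -3.05 ± 0.75 (SE), adjusted p = 0.035). Its call was lost without any one of the 6 IgG2b samples or of Nr2f6-/- replicates 2, 4, 5 and 6 with anti-PD-L1, with adjusted p up to 0.12. C1qa had 1081, 2506 and 1693 normalized counts in wild-type and 1050.2, 731 and 724 in Nr2f6-/- mice with IgG2b, against 1.02 to 1383 (median 309) in wild-type and 127 to 482 (median 229.5) in Nr2f6-/- mice with anti-PD-L1. Its share left, 27.7%, was near those of the other chains but it did not pass the test (log2 fold change -2.51 ± 0.75 (SE), adjusted p = 0.10). In wild-type replicate 2 with anti-PD-L1 both C1qa and C1qc were at 1.02 normalized counts, whereas C1qb was at 214 there.

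C3ar1, the receptor for the complement fragment C3a, had the second largest fitted decrease of the 37 genes. It had 579, 904 and 672 normalized counts in wild-type and 225, 286 and 284 in Nr2f6-/- mice with IgG2b, against 0.928 to 228 (median 23.0) in wild-type and 0 to 22.3 (median 0) in Nr2f6-/- mice with anti-PD-L1. Of the anti-PD-L1 samples, 4 were at 0, and wild-type replicate 5 was again the highest. It fell to 6.12% of the IgG2b mean (log2 fold change -6.11 ± 1.06 (SE), adjusted p = 0.002), to 4.12% in the first library set, and to 2.46% without wild-type replicate 5 with anti-PD-L1. Of the 10 other complement genes tested, 1 was called lower and 0 higher, against 0.934% and 0.2% of all genes. This was C5ar1, the receptor for C5a, which was at means of 123 and 164 normalized counts with IgG2b in wild-type and Nr2f6-/- mice and of 31.9 and 0 with anti-PD-L1 (log2 fold change -5.03 ± 1.10 (SE), adjusted p = 0.017). Cfp, which encodes properdin, missed the threshold (log2 fold change -4.07 ± 1.12 (SE), adjusted p = 0.065).

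Of the Fc receptors and their ITAM adaptors, 3 of 7 fell, and all 7 had log2 fold changes below 0. Fcer1g, the signaling chain shared by activating Fc receptors, had 2437, 2187 and 2239 normalized counts in wild-type and 1672, 2165 and 2215 in Nr2f6-/- mice with IgG2b, against 434 to 1016 (median 628) in wild-type and 415 to 1507 (median 772) in Nr2f6-/- mice with anti-PD-L1. The IgG2b samples lay close together and no anti-PD-L1 sample reached them. It fell to 35.9% (log2 fold change -1.58 ± 0.24 (SE), adjusted p = 3.3e-04). Tyrobp, the adaptor DAP12 of TREM2 and other receptors, had 612, 1089 and 1059 normalized counts in wild-type and 926, 574 and 538 in Nr2f6-/- mice with IgG2b, against 15.3 to 553 (median 147) in wild-type and 2.005 to 288 (median 112) in Nr2f6-/- mice with anti-PD-L1. Within each genotype the treatments did not overlap, and wild-type replicate 3 with anti-PD-L1 lay just above the lowest Nr2f6-/- IgG2b sample. The share left was 21.2% (log2 fold change -3.00 ± 0.73 (SE), adjusted p = 0.034), and the call was lost without any one of the 6 IgG2b samples (adjusted p up to 0.12).

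Fcgr2b, the only inhibitory Fc gamma receptor of the mouse, had 337, 568.1 and 352 normalized counts in wild-type and 146, 333 and 648 in Nr2f6-/- mice with IgG2b, against 0 to 118 (median 1.29) in wild-type and 0 to 103 (median 0) in Nr2f6-/- mice with anti-PD-L1. With anti-PD-L1 7 of 12 samples were at 0 and none reached the lowest IgG2b sample. Its share left was 6.75% (log2 fold change -6.26 ± 1.26 (SE), adjusted p = 0.0078), the largest fitted decrease of the 37 genes, but neither edgeR nor DESeq2 called it. The activating receptors were not called: Fcgr1 kept 17.6% (adjusted p = 0.052), or 10.7% without wild-type replicate 3 with anti-PD-L1, Fcgr3 kept 22.01% (adjusted p = 0.12) and Fcgr4 kept 30.1% (adjusted p = 0.17). Fcgr2b, Fcgr4, Fcgr3 and Fcer1g lie next to each other on chromosome 1 with gaps of 42.9, 21.4 and 164 kb, and the receptors are similar in sequence, so reads could have been split between them. Trem2, a lipid-sensing receptor of tumor macrophages, had the widest SE of the 37 genes (log2 fold change -2.34 ± 1.29 (SE), adjusted p = 0.52): its wild-type samples lay at 85.5 to 118 with IgG2b and 0 to 36.6 normalized counts with anti-PD-L1, but Nr2f6-/- replicate 5 with anti-PD-L1 held 288, more than any other sample. The share left was 46.3%, and 22.2% without that sample.

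Among surface molecules of myeloid identity, 3 of 7 fell and the other 4 had log2 fold changes below 0 without passing. Cd14, the co-receptor for lipopolysaccharide, had 417, 73.0 and 504 normalized counts in wild-type and 46.6, 160.2 and 233 in Nr2f6-/- mice with IgG2b, against 0 to 136 (median 5.22) in wild-type and 0 to 114 (median 0) in Nr2f6-/- mice with anti-PD-L1. With anti-PD-L1 7 of 12 samples were at 0. It fell to 11.3%, or 7.16% without wild-type replicate 5 with anti-PD-L1 (log2 fold change -5.17 ± 1.27 (SE), adjusted p = 0.035), but neither edgeR nor DESeq2 called it, and the call was lost without any one of 12 samples, all 6 IgG2b samples among them (adjusted p up to 0.12). Adgre1, which encodes the macrophage marker F4/80, had 365, 669 and 411 normalized counts in wild-type and 55.2, 565 and 101 in Nr2f6-/- mice with IgG2b, against 0 to 247 (median 79.4) in wild-type and 0 to 93.0 (median 0.499) in Nr2f6-/- mice with anti-PD-L1. In Nr2f6-/- mice replicate 2 was by far the highest of the IgG2b samples, and 5 of the 6 anti-PD-L1 samples were under 10. The share left was 15.5% (log2 fold change -4.58 ± 1.16 (SE), adjusted p = 0.043), a call likewise lost with edgeR, with DESeq2 and without any one of 12 samples (adjusted p up to 0.15). Sirpa, the receptor for the don't-eat-me signal CD47, had 534, 374 and 565 normalized counts in wild-type and 337, 435 and 365 in Nr2f6-/- mice with IgG2b, against 0 to 457 (median 53.1) in wild-type and 4.01 to 66.6 (median 10.3) in Nr2f6-/- mice with anti-PD-L1. It fell to 15.9% (log2 fold change -4.41 ± 1.03 (SE), adjusted p = 0.026), and the call was lost with edgeR and without any one of the 6 IgG2b samples (adjusted p up to 0.084). With anti-PD-L1 only wild-type replicate 5 reached the IgG2b samples, and without it the share left was 7.77%.

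The other 4 surface genes missed the threshold. Ms4a7, a membrane protein of tissue macrophages, kept 14.8% (adjusted p = 0.066). Itgam, which encodes CD11b, kept 21.2% (adjusted p = 0.093). Csf1r, the receptor on which macrophage survival depends, kept 23.3% (adjusted p = 0.10). Exons of Csf1r overlap those of Hmgxb3 on the opposite strand by 873 bases, so reads there could belong to either gene. Aif1, which encodes the actin-binding protein IBA1, kept 30.5% (adjusted p = 0.14). All 7 genes of this group had an unadjusted p under 0.05, against 11.5% of all genes. Without wild-type replicate 3 with anti-PD-L1 the share of Ms4a7 was 9.36%.

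Of the scavenger receptors and lipid carriers, 3 of 6 tested fell. Sepp1 (now named Selenop), which encodes the plasma selenoprotein P and is high in some tissue macrophages, had 5116, 7522 and 4955 normalized counts in wild-type and 2934, 3419 and 4312 in Nr2f6-/- mice with IgG2b, against 1399 to 3073 (median 2008) in wild-type and 571 to 2020.0 (median 1150.4) in Nr2f6-/- mice with anti-PD-L1. Within each genotype the treatments did not overlap. It fell to 35.4% (log2 fold change -1.58 ± 0.22 (SE), adjusted p = 7.5e-05). Apoe, the lipid carrier apolipoprotein E, had 2482, 3393 and 2145 normalized counts in wild-type and 1495, 1635 and 1735 in Nr2f6-/- mice with IgG2b, against 41.8 to 741 (median 151) in wild-type and 2.005 to 527 (median 101) in Nr2f6-/- mice with anti-PD-L1. The treatments did not overlap, yet the anti-PD-L1 samples spanned from 2.005 to 741. It fell to 10.5% (log2 fold change -4.47 ± 0.81 (SE), adjusted p = 0.003). Mrc1, the mannose receptor CD206, had 633, 1311 and 950.2 normalized counts in wild-type and 315, 402 and 172 in Nr2f6-/- mice with IgG2b, against 0 to 353 (median 67.3) in wild-type and 0 to 162 (median 18.7) in Nr2f6-/- mice with anti-PD-L1, and 11 of 12 anti-PD-L1 samples were below the lowest IgG2b sample. It fell to 11.7%, or 7.70% without wild-type replicate 4 with anti-PD-L1 (log2 fold change -4.59 ± 1.08 (SE), adjusted p = 0.028), a call lost without any one of the 6 IgG2b samples (adjusted p up to 0.11), with edgeR and with DESeq2.

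The remaining scavenger genes were not called. Msr1, scavenger receptor A, kept 21.1% (adjusted p = 0.065), or 13.0% without wild-type replicate 5 with anti-PD-L1, and Pltp, the phospholipid transfer protein, kept 26.1% (adjusted p = 0.093), with exons that overlap those of Ctsa on the opposite strand by 311 bases. Marco had reads in only 6 of 18 samples, the highest being 233 in wild-type replicate 1 with IgG2b and 108 in Nr2f6-/- replicate 4 with anti-PD-L1 (log2 fold change -1.24 ± 1.2046 (SE), adjusted p = 0.78). Cd163, the hemoglobin scavenger receptor, was at 68.5, 26.1 and 18.2 normalized counts in wild-type IgG2b samples and at 0 in all 6 wild-type anti-PD-L1 samples, which is at least 11.99-fold lower when a floor of 3 reads per library is set. No Nr2f6-/- sample held more than 3 reads of Cd163.

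Among the transcription factors and enzymes, 2 of 5 fell. Arg1 was at 1032, 125 and 443 normalized counts in wild-type mice with IgG2b and at 0 to 16.7 (median 0.429) with anti-PD-L1. In Nr2f6-/- mice it was at 265, 0 and 0 with IgG2b and at 0 in all 6 samples with anti-PD-L1. The Nr2f6-/- control level thus rested on replicate 1, and against the floor of 3 reads per library the decrease of its mean there was at least 24.3-fold. With the genotypes averaged the gene fell to 0.537% (log2 fold change -5.07 ± 1.13 (SE), adjusted p = 0.019), a share that was 1.002% without wild-type replicate 1 with IgG2b and 0.0971% without wild-type replicate 1 with anti-PD-L1, and the call was lost without Nr2f6-/- replicate 1 or wild-type replicate 1 or 3 with IgG2b (adjusted p up to 0.090) and in the first library set alone. Spi1 had 206, 389.8 and 376 normalized counts in wild-type and 551, 337 and 474 in Nr2f6-/- mice with IgG2b, against 5.10 to 116 (median 45.97) in wild-type and 20.7 to 279.8 (median 57.4) in Nr2f6-/- mice with anti-PD-L1. It fell to 18.9% (log2 fold change -2.88 ± 0.68 (SE), adjusted p = 0.028), to 11.9% in the first library set, and lost its call without any one of the 6 IgG2b samples (adjusted p up to 0.11).

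Cybb, the NADPH oxidase subunit of phagocytes, kept 38.9% (adjusted p = 0.056), and Hmox1, the heme-degrading enzyme, kept 12.4% (adjusted p = 0.065). Cebpb, a transcription factor of myeloid cells that other cells also use, kept 59.7% (adjusted p = 0.45), with means of 294 ± 112 normalized counts (SD, n = 6) and 175 ± 140.0 (SD, n = 12). In the first library set alone the share left was 90.2%. Exons of Cebpb overlap those of Tmem189 on the opposite strand by 312 bases.

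**Figure D3:**
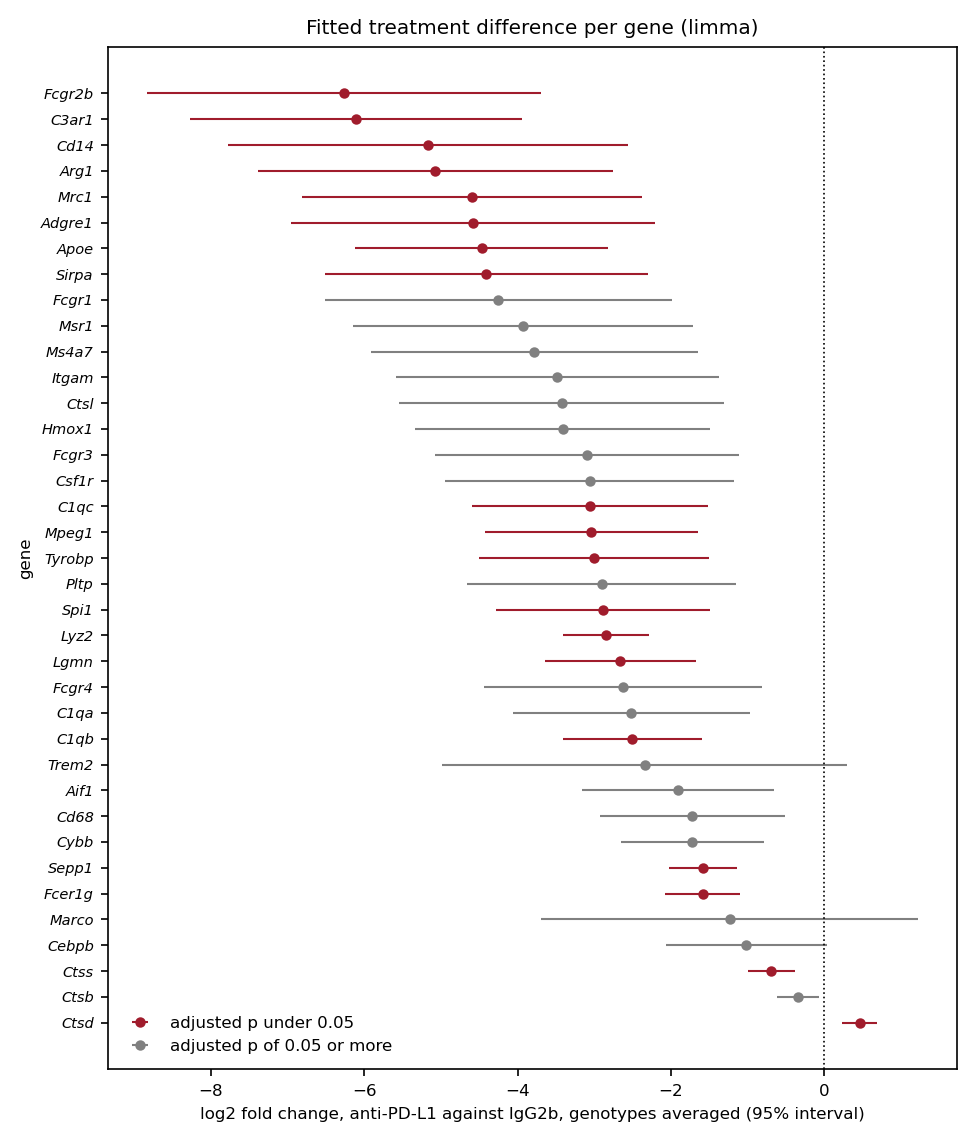
The horizontal axis is the log2 fold change of anti-PD-L1 against IgG2b with the genotypes averaged, from the limma fit on log2(normalized count + 1), with its 95% interval, for the 37 genes tested. The genes with the largest fitted decreases, from Fcgr2b to Sirpa, have intervals several log2 units wide that overlap each other, and Ctsd is the only gene whose interval lies above 0.

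The second question was how far the genes moved relative to each other. By the ratio of means, 25 of the 38 genes kept under 25% of their IgG2b level, 9 kept between 25% and 50%, and 4 kept over 50%. These 4 were Cebpb, Ctss, Ctsb and Ctsd. The fitted fold weighs samples at 0 more than the ratio of means does: for Fcgr2b it was a 76.9-fold and the ratio of means a 14.8-fold decrease. Neighbours in this order were mostly not separated by their errors: the 95% interval of the log2 fold change was -8.83 to -3.70 for Fcgr2b, -3.41 to -2.29 for Lyz2 and -3.41 to -1.59 for C1qb. The intervals of Fcer1g (-2.07 to -1.09) and Sepp1 (-2.03 to -1.14) lay above that of Lyz2 without touching it, and those of Ctss (-0.99 to -0.39), Ctsb (-0.61 to -0.07) and Ctsd (0.24 to 0.69) lay above all of these.

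**Figure D4:**
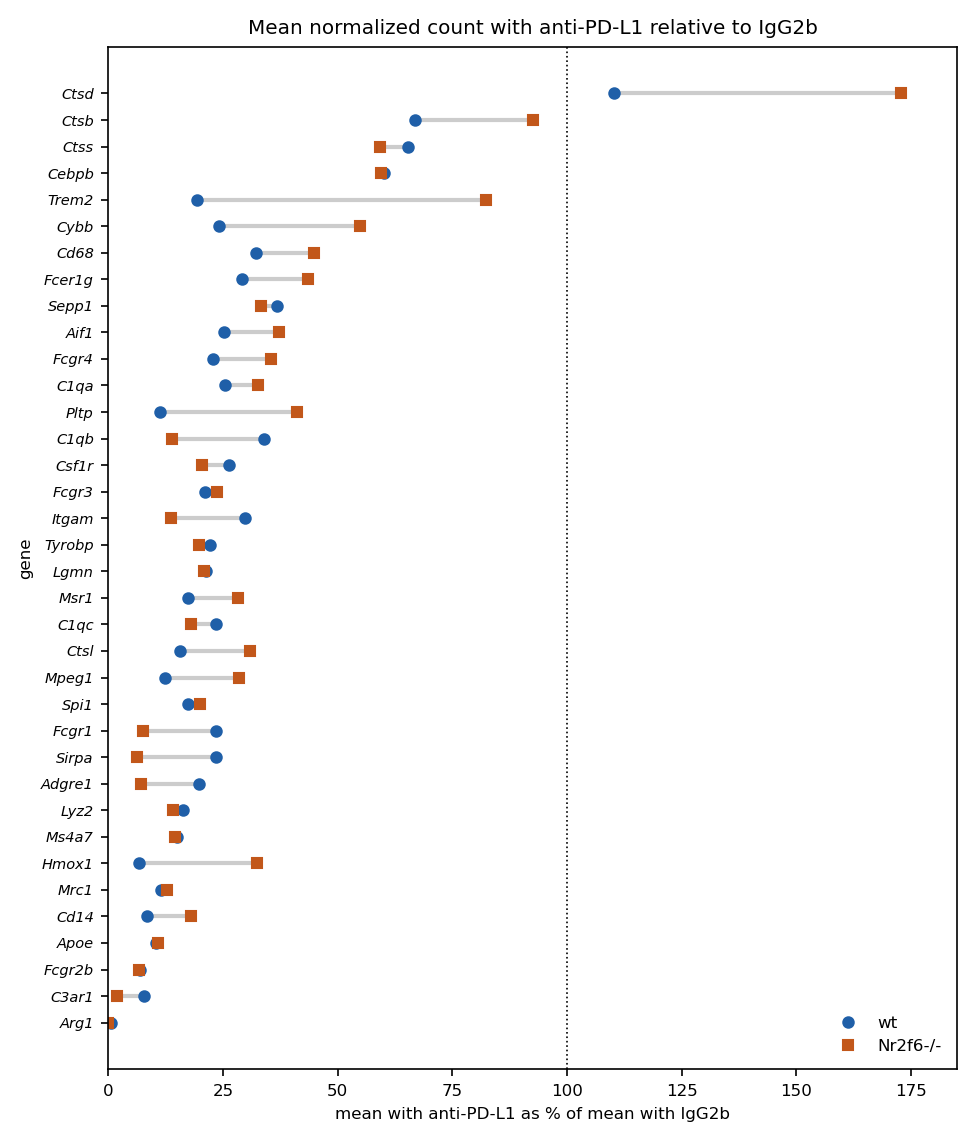
The horizontal axis is the mean normalized count with anti-PD-L1 as a percent of the mean with IgG2b, in wild-type (circles) and Nr2f6-/- mice (squares), for 36 genes, with Cd163 and Marco left out because their Nr2f6-/- IgG2b means rest on under 3 reads per library. The dotted line at 100% marks no difference, which only Ctsd exceeds, at 110.2% and 173%.

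A direct comparison used the ratio of each gene to Lyz2 within a sample, as the difference of their log2(normalized count + 1), for the 36 other genes tested. The test and the choice of Lyz2 as reference were added after the values were seen. Treatments were compared with an exact permutation test, two-sided, with labels exchanged within genotype (7056 arrangements, smallest possible p 0.00014). The 36 p-values are not adjusted unless this is stated. The p was under 0.05 for 6 genes whose ratio to Lyz2 was higher with anti-PD-L1, for 2 whose ratio was lower, and for neither direction in 28. After Benjamini-Hochberg adjustment over the 36 genes, Fcgr2b, 1 of the 2 lower, was no longer under 0.05 (adjusted exact permutation p = 0.14). The others stayed under it. The log2 ratio of Ctsd was higher by 3.31, exact permutation p = 0.00014, that of Ctsb by 2.50, exact permutation p = 0.00014 and that of Ctss by 2.16, exact permutation p = 0.00014. For these 3 genes all 12 anti-PD-L1 samples were above all 6 IgG2b samples. Because Lyz2 itself fell without overlap, a gene that changed little also gets a higher ratio. These p-values thus restate the fall of Lyz2 and do not test a change in the 3 genes themselves. The ratio was also higher for Cebpb (1.83, exact permutation p = 0.0069), Fcer1g (1.27, exact permutation p = 9.9e-04) and Sepp1 (1.26, exact permutation p = 0.0075). Cebpb was not called itself (59.7% left, adjusted p = 0.45 with limma), so its p likewise restates the fall of Lyz2. For Fcer1g and Sepp1, too, the ratio does not test a change in the gene itself.

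The ratio to Lyz2 was lower with anti-PD-L1 for C3ar1 (-3.26, exact permutation p = 0.0047) and Fcgr2b (-3.42, exact permutation p = 0.03), both of which had samples at 0, where the pseudocount sets the log value. Among the 28 genes with p of 0.05 or over, the log2 ratio changed by 0.35 (exact permutation p = 0.37) for C1qb, by 0.19 (exact permutation p = 0.73) for Lgmn and by -0.03 (exact permutation p = 0.96) for Spi1. It changed by -1.62 (exact permutation p = 0.092) for Apoe and by 1.13 (exact permutation p = 0.10) for Cybb. These p-values do not show that the genes moved alike. In the first library set alone (400 arrangements) the exact permutation p was under 0.05 for 7 genes with a higher ratio, the 6 above and Cd68 (higher by 1.72, p = 0.005), and for 1 with a lower ratio, C3ar1 (p = 0.015). For Fcgr2b it was 0.2 there.

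**Figure D5:**
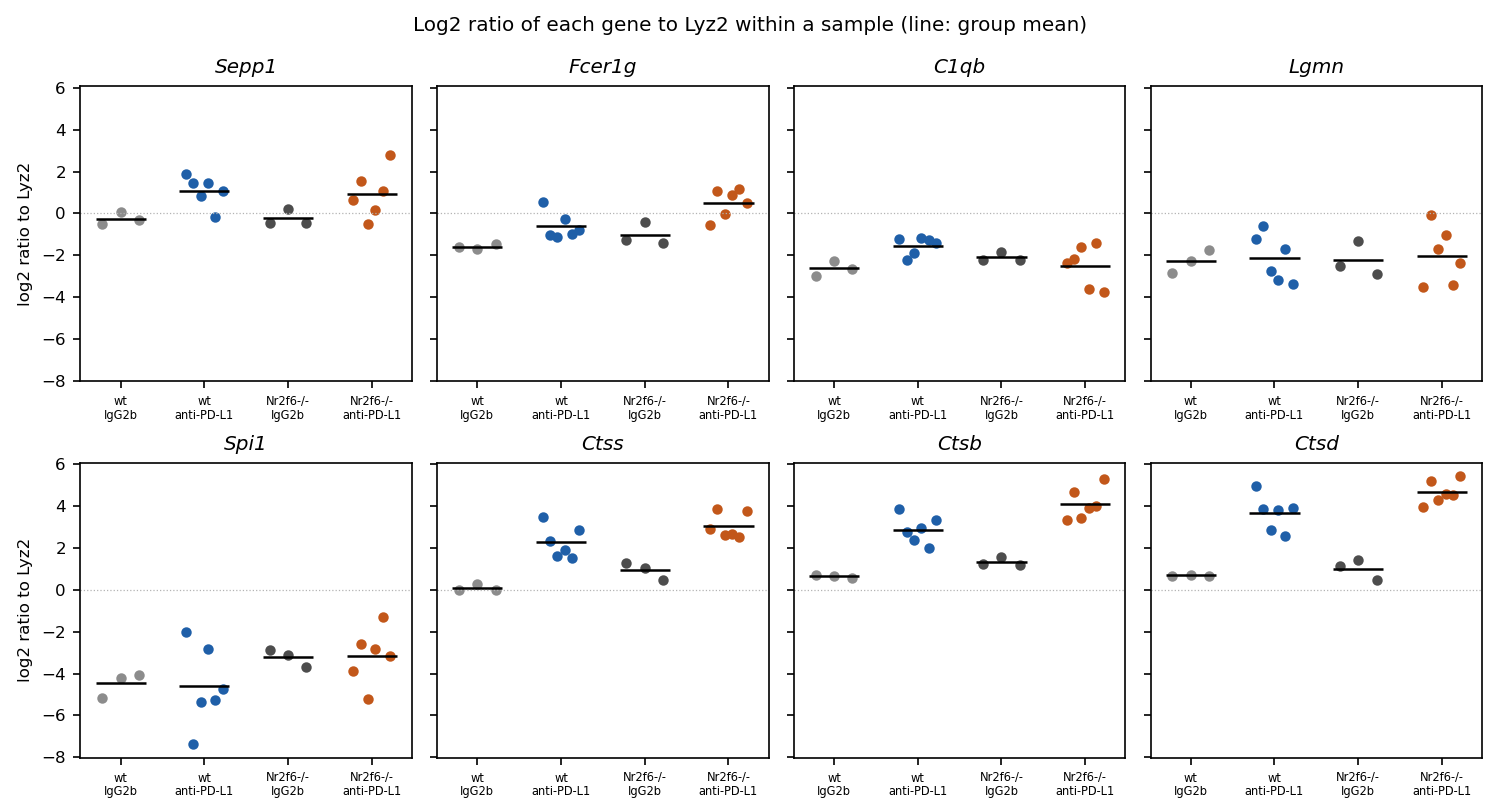
Each panel shows log2(normalized count + 1) of 1 gene minus that of Lyz2 in the same sample, with a line for the group mean (n = 3 with IgG2b, n = 6 with anti-PD-L1). For Ctss, Ctsb and Ctsd all 12 anti-PD-L1 samples lie above all IgG2b samples, for Sepp1 9 and for Fcer1g 7 of 12 do, and C1qb, Lgmn and Spi1 scatter on both sides of their IgG2b level.

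The third question was whether the decrease was found in both genotypes. In wild-type mice 4 of 37 genes were called lower (Lyz2, Fcer1g, Sepp1, Arg1), against 0.242% of all genes, and 0 higher. In Nr2f6-/- mice 4 were called lower (Lyz2, Sepp1, C1qb, C3ar1), against 0.192% of all genes, and 1 higher (Ctsd). The number of genes with every anti-PD-L1 sample below every IgG2b sample was 25 of 37 in wild-type (background 3.22%) and 21 of 37 in Nr2f6-/- mice (background 3.15%). The median log2 fold change of the 37 genes was -3.14 in wild-type and -2.69 in Nr2f6-/- mice. Lyz2 was the only gene whose call held in each genotype under every alternative run, with log2 fold changes of -2.83 ± 0.39 (SE) in wild-type and -2.87 ± 0.39 in Nr2f6-/- mice (adjusted p = 3.9e-04 and 3.2e-04).

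The difference of the treatment effect between the genotypes was called for 0 of 37 genes (background 0%), with 2 at an unadjusted p under 0.05 (4.97% of all genes), 0 called by edgeR and 0 by DESeq2. These 2, a share near that of all genes, were Ctsd and Arg1. Ctsd changed by 0.14 ± 0.16 in wild-type and 0.78 ± 0.16 in Nr2f6-/- mice, a difference of 0.64 ± 0.22 (SE, unadjusted p = 0.0069, adjusted p = 0.97 with limma). Arg1 changed by -7.46 ± 1.60 and -2.69 ± 1.60, where the second value is no bound, since it was fitted against libraries at 0 and a control level that rested on 1 library (adjusted p of the difference = 0.97 with limma). C1qb changed by -3.27 ± 0.63 (SE) in Nr2f6-/- and by -1.73 ± 0.63 in wild-type mice, and this difference was not called (95% interval -3.36 to 0.28). For Lyz2 the interval of the difference was -1.16 to 1.08, and for Fcer1g -0.46 to 1.49.

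Under anti-PD-L1, Nr2f6-/- and wild-type samples differed in 0 of 37 genes (background 0.175%), with 8 at an unadjusted p under 0.05 (9.73% of all genes), 0 called by edgeR and 1, Arg1, by DESeq2, although Arg1 was at or under 3 reads in 11 of these 12 samples. The 2 smallest p-values were those of Sepp1, lower in Nr2f6-/- mice (log2 fold change -0.92 ± 0.25 (SE), adjusted p = 0.14), and C1qb, also lower (log2 fold change -1.74 ± 0.51 (SE), adjusted p = 0.21). Sepp1 was called without Nr2f6-/- replicate 6 (adjusted p = 0.046). Ctsb was higher by 0.44 ± 0.15 on the log2 scale and Cybb by 1.29 ± 0.52 (SE), neither past the threshold (adjusted p = 0.30 and 0.40 with limma).

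With IgG2b, the genotypes differed in 0 of 37 genes (background 0%), with 2 at an unadjusted p under 0.05 (5.35% of all genes, so that these 2 are no more than the background) and 0 called by edgeR or DESeq2. Of the 37 genes 32 had a log2 fold change below 0 in Nr2f6-/- mice, against 6487 of all 11992, with a median of -0.70 against -0.06 for all genes. The sum without Ctsb, Ctsd and Ctss was 32505 to 40601 normalized counts in the 3 wild-type and 20784 to 26878 in the 3 Nr2f6-/- IgG2b samples. Ctsd (log2 fold change -0.42 ± 0.18, SE) and Arg1 (-5.91 ± 1.84) had the smallest p-values, at 0.027 and 0.0033 unadjusted and 0.89 and 0.71 adjusted with limma. Without the filter on low values Cd163 was called lower in Nr2f6-/- mice with IgG2b (adjusted p = 0.0026).

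Within the anti-PD-L1 samples, the second library set was compared with the first, and 0 of 37 genes were called (background 0.517%), with 2 at an unadjusted p under 0.05 (11% of all genes, a larger share), 0 called by edgeR and 2 by DESeq2. Cebpb was lower in the second set (log2 fold change -1.45 ± 0.51 (SE), adjusted p = 0.23) and was called by DESeq2. Fcgr3 was higher (log2 fold change 2.37 ± 1.0005 (SE), adjusted p = 0.35) and was called by neither edgeR nor DESeq2. DESeq2 also called Marco, which had reads in 1 Nr2f6-/- and 1 wild-type sample of that set. The sum of the genes without Ctsb, Ctsd and Ctss was 5085 to 10239 normalized counts in the 6 samples of the first set and 4658 to 12969 in the 6 of the second.

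A list of other macrophage and monocyte genes was read in the same comparison. Of 30 tested, 5 were called lower and 0 higher, and the median log2 fold change was -1.74. Counts of genes called lower in this paragraph stand against 0.934% of all genes tested. Summed, this list kept 79.4% of its IgG2b mean. The sums of the signaling, chemokine and MHC class II lists below kept 87.9%, 16.6% and 27.5%. Grn, which encodes the lysosomal protein progranulin, fell (log2 fold change -1.25 ± 0.23 (SE), adjusted p = 0.0038), as did Fn1, fibronectin (log2 fold change -4.96 ± 1.02 (SE), adjusted p = 0.011). Of 15 genes that act downstream of ITAM adaptors and colony-stimulating factor receptors, 1 was lower, the transcription factor Klf4 (log2 fold change -4.88 ± 1.10 (SE), adjusted p = 0.021), and the receptor chain Csf2rb missed the threshold (log2 fold change -3.43 ± 0.96 (SE), adjusted p = 0.07). A list of chemokines held Ccl2, Ccl7, Ccl8 and Ccl12, and also Ccl24, Cxcl2, Cxcl3 and Cxcl16. Of the 9 tested, 7 fell, with Ccl6 (log2 fold change -3.47 ± 0.36 (SE), adjusted p = 8.4e-07) and Ccl12 (log2 fold change -6.54 ± 1.11 (SE), adjusted p = 0.0018) at the smallest p-values. Of the MHC class II genes, which macrophages share with dendritic cells and B cells, 4 of 7 fell, led by H2-Eb1 (log2 fold change -2.12 ± 0.26 (SE), adjusted p = 1.3e-05) and H2-Ab1 (log2 fold change -2.23 ± 0.28 (SE), adjusted p = 2.1e-05).

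Markers of other cells that a sort could carry over were read beside these values, and their counts at an unadjusted p under 0.05 stand against 11.5% of all genes. The summed T cell list of 15 genes ranged from 75985 to 89039 normalized counts with IgG2b and 75438 to 114737 with anti-PD-L1, and 0 of 15 were called (6 at an unadjusted p under 0.05), with Cd6 (log2 fold change 0.64 ± 0.21 (SE), adjusted p = 0.16) and Cd3e (log2 fold change 0.34 ± 0.13 (SE), adjusted p = 0.24) nearest the threshold. Cd8a had a mean of 9276 ± 1857 normalized counts with IgG2b (SD, n = 6) and 11249 ± 3189 with anti-PD-L1 (SD, n = 12), and Cd4 of 4727 ± 1691 and 4200 ± 1748. The 10 dendritic cell genes summed to 959.7 to 1302 normalized counts with IgG2b and 157 to 830.1 with anti-PD-L1, with 0 of 8 tested called and 4 at an unadjusted p under 0.05. Clec10a (log2 fold change -1.60 ± 0.48 (SE), adjusted p = 0.10) and Cd209a (log2 fold change -3.84 ± 1.15 (SE), adjusted p = 0.10) were nearest. The 8 platelet genes summed to 268 to 2611 normalized counts with IgG2b and 0 to 400.1 with anti-PD-L1, 3 of them had no read in any sample, and both genes tested fell, Pf4 (log2 fold change -5.36 ± 1.12 (SE), adjusted p = 0.013) and Ppbp (log2 fold change -3.74 ± 0.84 (SE), adjusted p = 0.02). Ppbp had reads in the 3 wild-type IgG2b samples alone. The platelet sum was mostly Pf4. In the Nr2f6-/- IgG2b samples the sum and Pf4 alone were both at 268 to 703 normalized counts. In the wild-type IgG2b samples the sum was 2300 to 2611 and Pf4 alone 2142 to 2269. The part of platelets or dendritic cells in the decreases above was not tested.

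The other lists held no called gene. The 10 B cell genes summed to 1954 to 4329 normalized counts with IgG2b and 951 to 2743 with anti-PD-L1 (0 of 6 called, 2 at an unadjusted p under 0.05), with Fcrla (log2 fold change -3.58 ± 1.12 (SE), adjusted p = 0.12) and Ighm (log2 fold change -0.55 ± 0.21 (SE), adjusted p = 0.25) lowest in p. NK cell genes, some of whose cells carry Fcer1g and Tyrobp, summed to 1458 to 2569.8 normalized counts with IgG2b and 945 to 4584 with anti-PD-L1 (0 of 4 called, 1 at an unadjusted p under 0.05), led by Klri2 (log2 fold change 2.38 ± 0.69 (SE), adjusted p = 0.083) and Klrb1c (log2 fold change -1.65 ± 1.25 (SE), adjusted p = 0.68). The 11 neutrophil genes summed to 5.21 to 396 normalized counts with IgG2b and 2.04 to 927 with anti-PD-L1 (0 of 3 called, 0 at an unadjusted p under 0.05), and Mmp9 had an adjusted p of 0.44 and Ltf of 0.94 with limma. Melanoma genes summed to 1232 to 4649 normalized counts with IgG2b and 799 to 7821 with anti-PD-L1 (0 of 6 called, 0 at an unadjusted p under 0.05), with adjusted p of 0.51 for Mitf and 0.74 for Tyrp1. Fibroblast genes summed to 45.9 to 324 normalized counts with IgG2b and 0 to 458 with anti-PD-L1 (0 of 3 called, 2 at an unadjusted p under 0.05), with 0.25 for Col1a2 and 0.40 for Col3a1. Endothelial genes summed to 231 to 460.2 normalized counts with IgG2b and 112 to 548 with anti-PD-L1 (0 of 5 called, 0 at an unadjusted p under 0.05), with 0.63 for Egfl7 and 0.74 for Cdh5. Erythroid genes summed to 0 to 447 normalized counts with IgG2b and 5.15 to 10834 with anti-PD-L1 (0 of 5 called, 0 at an unadjusted p under 0.05), with 0.65 for Hbb-bs and 0.80 for Hbb-bt.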

How the data were processed

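CD3+ cells sorted from B16-OVA tumors were sequenced with a QuantSeq 3′ kit on an Ion Torrent instrument. Per the labels and methods, the authors used cutadapt and Trimmomatic for trimming, dropped reads below 22 nucleotides, aligned them to mm10 with STAR and then Bowtie2, counted them per gene with HTSeq and normalized them with DESeq2. Versions, annotation and strand setting were not given in the sources used here. The authors deposited normalized counts, a signal in which each read count is divided by 1 size factor per sample (0.823 to 1.22). Whole reads were recovered from 100% of values (tolerance 0.01), with 12473391 to 18609482 reads per sample, and 3 reads, the floor used, were worth 2.46 to 3.64 normalized counts. The floor covers counting error only, and the 95% intervals of limma the spread between samples.

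The 11992 of 37236 genes whose mean normalized count reached 10 were tested on log2(normalized count + 1) with limma 3.58.1 (R 4.3.3, trended variance) in 1 model of 4 groups, two-sided, with Benjamini-Hochberg adjustment over all genes tested and a threshold of 0.05. A fold change is on the log2(normalized count + 1) scale, where the pseudocount bounds the fold of low genes and samples at 0 weigh more than in a ratio of means. Every adjusted p is from limma unless a tool is named. edgeR 4.0.16 and DESeq2 1.42.0 on the recovered reads, other pseudocounts, filters and scalings, the first library set, a library set term, a replicate block and each sample left out were the alternatives. The fits and the permutation test were tested on simulated data. The 38 genes and all other lists were chosen with earlier results of these data known. Every one of the 38 is named, and of the other lists the pair with the smallest unadjusted p. Lyz1 and genes with overlapping exons (GENCODE M21) were named for sequence alone. Clec7a and Lilrb4 were not analysed here. The test of ratios to Lyz2 was added after the values were seen.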

Additional observations from a re-analysis of the deposited data

Results flagged for a closer look

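In 9 of 76 groups of 6 samples checked, 1 sample stood far from the other 5 by Dixon's criterion, which chance meets in about 1 of 20 groups. Both groups of 6 were anti-PD-L1 groups, and the IgG2b groups of 3 were not checked. In wild-type mice replicate 2 was low for C1qa (1.02 normalized counts, the nearest sample being at 238), C1qc (1.02, nearest 113) and Fcgr4 (0, nearest 33.4). Replicate 4 was low for Aif1 (7.42, nearest 78.4). Among Nr2f6-/- mice replicate 6 was low for Tyrobp (2.005, nearest 70.5) and Ctsl (0, nearest 45.6), and replicate 5 was low for Cybb (84.6, nearest 308). Replicate 4 was high for Marco (108) and replicate 5 for Cd163 (2.70, which is 3 reads), where the other 5 samples were at 0.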

How the results depend on the processing

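With both genotypes averaged, 19 genes were called, and the number was 30 with a pseudocount of 10, 11 with no filter on low values and 12 with library set as a covariate. Leaving out 1 sample gave 8 to 23, with 9, 9 and 9 without wild-type and 8, 10 and 11 without Nr2f6-/- IgG2b replicates 1, 2 and 3. In wild-type mice 4 were called, 9 with a pseudocount of 10, 2 with the covariate, 2 with the replicate block, and 1 to 4 with 1 sample left out (1 without any IgG2b replicate, 2 without anti-PD-L1 replicate 6). For Nr2f6-/- mice 5 were called, 2 with no filter, 10 with DESeq2, and 1 to 7 with 1 sample left out (2, 2 and 1 without IgG2b replicates 1, 2 and 3). Where 0 were called, no filter gave 1 (Cd163) between genotypes with IgG2b and 1 (Cd163) for the difference between genotypes, DESeq2 gave 1 (Arg1) between genotypes with anti-PD-L1 and 2 (Cebpb, Marco) between library sets, and leaving out 1 anti-PD-L1 sample gave 0 to 1 (Sepp1). The causes were not tested. The sign turned for Marco averaged over genotypes with DESeq2 (log2 fold change 0.076), for Marco in Nr2f6-/- mice in the first library set (-0.51), with the covariate (-0.012), with the replicate block (-0.012) and without anti-PD-L1 replicate 4, and for Ctsb there without IgG2b replicate 3, while Arg1 went to 0 without IgG2b replicate 1. Leaving out 1 sample, these Nr2f6-/- log2 fold changes ran from -0.51 to 1.13 for Marco, -0.22 to 0.11 for Ctsb and -4.03 to 0 for Arg1. Of 3213 values of single genes, 2970 kept direction and side of the threshold, 66 passed it, 170 lost it and 7 reversed. Same-numbered samples did not deviate together (21 pairs, r -0.03 to 0.04), so the replicate block, which gave 13 calls averaged over genotypes, has no pairing behind it. Depth limits genes near 3 reads, Marco, Cd163 and Arg1 among them.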
